A study of Mus musculus with 12 samples.

Results

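In mouse embryonic stem (ES) cells followed over 6 days, 5613 of 16468 tested genes (34.1%) changed course at day 4. For every gene, the change from day 4 to day 6 (the second step, day 6 minus day 4) was set against the change from day 2 to day 4 (the first step, day 4 minus day 2), both as log2 fold changes. The difference, second step minus first step, is called the turn here. A negative turn means that a rise stopped, slowed or reversed, or that a fall began or sped up, and a positive turn means the opposite. The values come from 9 of the 12 libraries of the series, 3 each at days 2, 4 and 6, and the day 0 libraries entered the fit to help estimate the spread between replicates.

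All libraries carry the same label, mouse ES cells of a line given only as mESC, with no genotype, strain or agent named for any day. The labels describe 1 culture for all days: gelatin-coated plates with irradiated embryonic fibroblasts as feeders, in a medium with KnockOut Serum Replacement and LIF, which sustains the self-renewal of ES cells. No label gives a treatment started at day 0. None says whether replicates were separate cultures either, so the spread behind each p-value may be technical only. The series title names the NuRD complex and CTCF sites as its subject.

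ES cells that leave self-renewal shut down a network of transcription factors built around Pou5f1, Sox2 and Nanog and turn on genes of the germ layers and of extraembryonic tissue. Such programmes run in sequence, so a gene can rise and fall again as its stage passes, reach a plateau, or start late. Retinoic acid is one signal known to drive this exit: it binds RAR receptors on DNA, switches on Hox genes in order along the body axis, and induces the Cyp26 enzymes that degrade it. ES cultures also hold a small and changing fraction of cells that express genes of the two-cell embryo, such as the Zscan4 family.

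Levels are counts per 1e6 counts (CPM) after scaling by edgeR's TMM factors, given per library in the order of replicates 1, 2 and 3, or as mean ± SD (n = 3 libraries a day), where 3 such values in a row stand for days 2, 4 and 6. Steps and turns are fitted log2 values ± SE. Adjusted p-values are from edgeR's quasi-likelihood test, two-sided, with Benjamini-Hochberg adjustment over all tested genes, and a gene was called at an adjusted p under 0.05. In units of 1e6, total counts were 10.6 to 12.8 at day 2, 6.95 to 10.2 at day 4 and 9.17 to 13.3 at day 6. The 7 pluripotent cell markers summed to 1796 to 1830 CPM at day 2, 955 to 978 CPM at day 4 and 758 to 788 CPM at day 6. The 12 markers of feeder fibroblasts summed to 41.3 to 41.7, 65.2 to 68.1 and 216 to 236 CPM on the same days, with Dcn at 0 at day 2, S100a4 at 0 at day 6 and no marker at 0 at day 4. Anything that the 3 day 4 libraries share, in culture or in preparation, enters both steps with opposite sign and cannot be told apart from a turn.

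Upward turns were called for 2813 genes (17.1% of those tested) and downward turns for 2800 (17%). These shares are the background for the counts of list members given below. The median turn over all tested genes was 0.00977, and the median SE of a turn was 0.18. Turns of at least 1 on the log2 scale were downward for 946 genes (5.74%) and upward for 437 (2.65%). The first step was called for 8245 genes (50.1%) and the second for 7065 (42.9%). Of the 991 genes that fell in both steps, 769 had no turn called, and of the 1538 that rose in both, 1067 had none. Nearest to the threshold, Tmem179b was just inside (turn -0.76 ± 0.30, adjusted p = 0.0498) and Gapvd1 just outside (turn 0.24 ± 0.10, adjusted p = 0.05004).

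The called genes took 10 shapes, set by which of the steps passed the test. Reversals made up 858 peaks (5.21% of tested genes), which rose and then fell, and 798 troughs (4.85%), which fell and then rose. Stops were 882 rises (5.36%) and 1080 falls (6.56%) whose second step was not called. In 447 of these stopped rises and 722 of the stopped falls the 95% interval of the second step lay within 0.322 of 0 on the log2 scale, so there the plateau is a bound on the second step and not only a missed threshold. In the others, a stop means only that the second step was not called. A further 381 rises (2.31%) and 145 falls (0.88%) slowed without stopping. After a first step that was not called, 690 genes (4.19%) rose late and 595 (3.61%) fell late. Speeding up was the rarest shape, with 90 rises (0.547%) and 77 falls (0.468%). Slowing and speeding up refer to the log2 fold, so a slowed rise can still gain more CPM in the second step. With neither step called, 10 genes turned upward (0.0607%) and 7 downward (0.0425%). The second step undid a median of 95.1% of the first in peaks and 92.7% in troughs, and in 401 peaks and 351 troughs it was at least as large as the first. Both steps had to be called in opposite directions and share the day 4 libraries, so these shares are partly set by the selection.

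**Figure D1:**
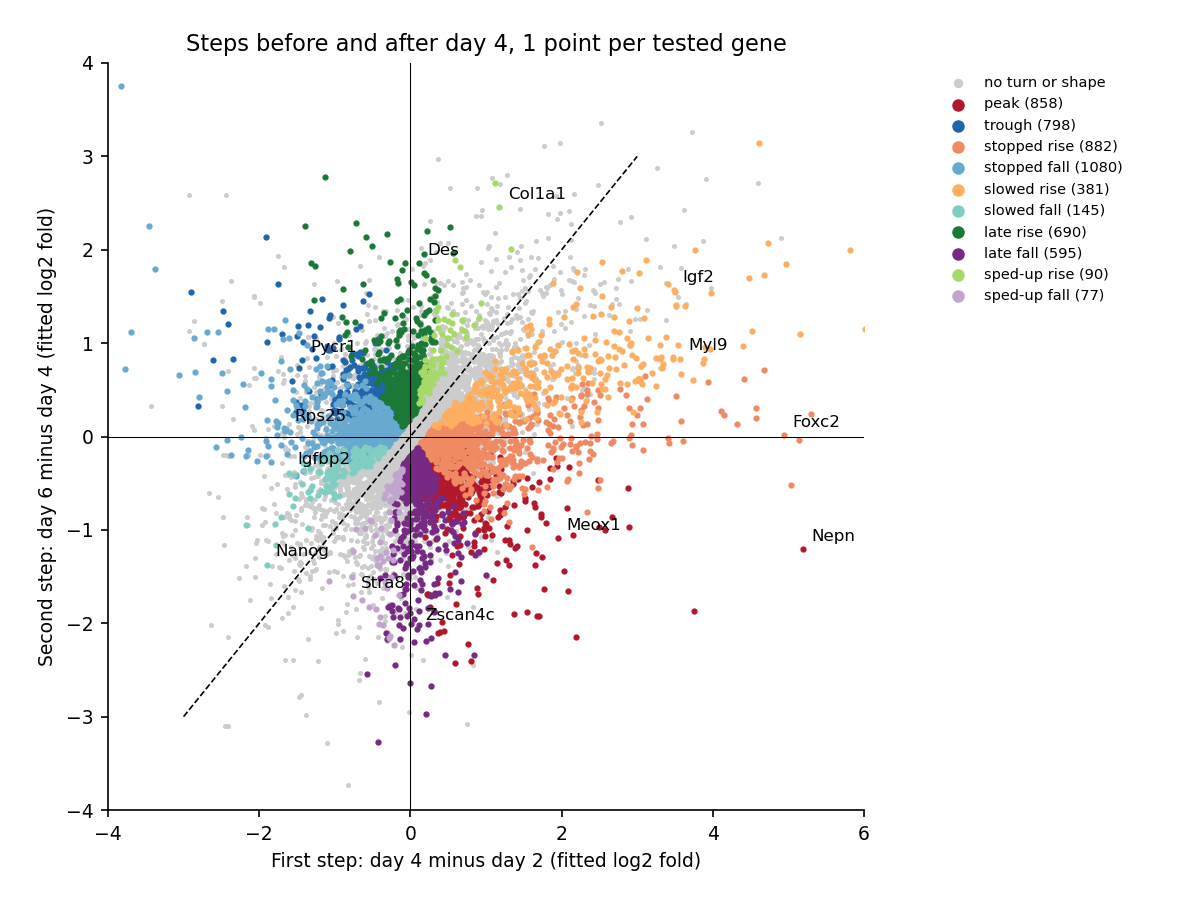
Each point is a tested gene, with its first step (day 4 minus day 2, fitted log2 fold) on the x axis and its second step (day 6 minus day 4) on the y axis, coloured by shape with the number of genes in brackets; 17 genes lie outside the axes. Genes on the dashed line moved equally in both steps; the turn is the vertical distance from it, so the 2800 downward turns lie below it and the 2813 upward turns above.

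Ranked by the smaller of their steps, the steepest peaks were Nepn, Trappc6b, Cenpl and Meox1. Nepn (ENSMUSG00000038624, chromosome 10, 52388972 to 52404625, plus strand, GRCm38), which encodes nephrocan, a secreted leucine-rich repeat protein, was at 0.379, 0.563 and 0.0909 CPM at day 2, 12.9, 13.8 and 13.6 CPM at day 4 and 6.06, 6.05 and 5.26 CPM at day 6. Its turn was -6.4 ± 0.33 (adjusted p = 2.44e-18), with a first step of 5.19 ± 0.24 and a second of -1.21 ± 0.14. All day 4 libraries lay above those of both other days, which the rule for naming peaks required, and day 6 stayed above day 2. Meox1 (ENSMUSG00000001493, chromosome 11, 101877510 to 101894374, minus strand), a homeobox factor of the somites, was at 29.5, 29.3 and 31.8 CPM at day 2, 116, 116 and 118 CPM at day 4 and 52, 58.9 and 53.8 CPM at day 6. It too was highest in every day 4 library, as that rule required, and kept part of its gain (turn -3.04 ± 0.10, adjusted p = 8.32e-25). Trappc6b, a subunit of a vesicle-tethering complex, came back almost to its starting level, at 52, 48.3 and 51.1 CPM at day 2, 131, 134 and 131 CPM at day 4 and 59.9, 54.1 and 58.6 CPM at day 6 (turn -2.58 ± 0.09, adjusted p = 2.96e-24). Cenpl, a centromere protein gene, did the same, with 18 ± 3.95, 45.2 ± 2.12 and 20.4 ± 1.5 CPM at days 2, 4 and 6 (turn -2.48 ± 0.17, adjusted p = 4.31e-12). In 26 peaks both steps were at least 2-fold.

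Germline and meiosis genes turned downward or not at all. Of 28 tested members, 16 turned downward and 0 upward, with 8 peaks, 5 stopped rises and 3 slowed rises, and the list's median turn was -0.39. At an unadjusted p under 0.05, 1 member turned upward and 21 downward, and DESeq2 and limma-voom also called 0 upward. Dazl, an RNA-binding protein of germ cells, was at 181, 192 and 198 CPM at day 2, 313, 289.7 and 323 CPM at day 4 and 178, 164 and 167 CPM at day 6. The day 4 libraries were the highest and day 6 was below day 2 (turn -1.56 ± 0.08, adjusted p = 1.72e-18). Stag3, a meiotic cohesin subunit, peaked at 50.4 ± 2.53, 85.8 ± 3.86 and 72.6 ± 1.17 CPM (turn -1.01 ± 0.10, adjusted p = 1.09e-10), and Smc1b, its meiotic partner, rose and stopped at 34.2 ± 0.986, 72.6 ± 3.52 and 77.7 ± 0.943 CPM (turn -0.98 ± 0.10, adjusted p = 4.96e-10). Tex19.1, Tex11, Rhox13, Stk31, Sycp1 and Tex101 were further peaks. Sycp2, Hormad2 and Ddx4 went on rising more slowly.

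Genes of the unfolded protein response mostly turned downward. Of 20 tested genes of the unfolded protein response, which raises folding capacity when unfolded proteins build up, 14 turned downward and 2 upward (median turn -0.41). They comprised 5 peaks, 6 stopped rises, 1 slowed rise and 2 late falls. The promoters of such genes are known to carry the ER stress response element (ERSE), in which CCAAT and CCACG stand 9 bases apart and which binds ATF6 together with NF-Y. The letters searched were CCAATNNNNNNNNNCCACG, on both strands in the 250 bases before the start of 27025 RefSeq genes (GRCm38.p6). It was present before 35 genes (0.13%) and before 8 of the 18 listed genes with a promoter in that table (44.4%). The stretches around the element of 4 of them are shown, read along each gene's strand, with the element in capitals.
Hspa5, chr2:34771985-34772083, plus strand: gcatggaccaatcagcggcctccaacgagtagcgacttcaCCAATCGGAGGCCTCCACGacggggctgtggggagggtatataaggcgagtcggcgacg
Hsp90b1, chr10:86705493-86705694, minus strand: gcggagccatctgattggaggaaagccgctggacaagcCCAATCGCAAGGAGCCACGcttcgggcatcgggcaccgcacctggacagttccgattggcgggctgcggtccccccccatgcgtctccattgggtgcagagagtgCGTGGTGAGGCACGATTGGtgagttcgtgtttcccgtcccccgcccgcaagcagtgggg
Calr, chr8:84847035-84847133, minus strand: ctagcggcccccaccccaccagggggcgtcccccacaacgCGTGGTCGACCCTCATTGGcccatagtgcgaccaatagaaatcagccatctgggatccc
Creld2, chr15:88819480-88819578, plus strand: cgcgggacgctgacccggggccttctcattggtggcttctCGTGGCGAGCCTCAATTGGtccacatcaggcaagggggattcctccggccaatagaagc

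Hspa5, the main Hsp70 chaperone of the endoplasmic reticulum, holds the element in the direction of transcription and Calr and Creld2 in reverse, while Hsp90b1 holds it in both directions. Hspa5 was at 780.5, 825 and 798 CPM at day 2, 1157, 1130.5 and 1127 CPM at day 4 and 965, 926 and 986 CPM at day 6. Every day 4 library was above those of the other days, and day 6 stayed above day 2 (turn -0.75 ± 0.07, adjusted p = 1.2e-10). Hsp90b1, the Hsp90 of this compartment, rose to 1553 ± 33.9, 2293 ± 32.3 and 2148 ± 32.1 CPM at days 2, 4 and 6, with a second step of -0.09 ± 0.04 that was not called (adjusted p = 0.0646) and a turn of -0.66 ± 0.07. Calreticulin (Calr), a chaperone of glycoproteins, had a turn of -0.42 ± 0.08 and Creld2 one of -0.63 ± 0.09. Manf, a secreted protein of the same response, reversed, at 77.4, 78.9 and 73.7 CPM at day 2, 136, 139.7 and 121 CPM at day 4 and 89.8, 93.8 and 96.4 CPM at day 6 (turn -1.31 ± 0.09, adjusted p = 5.93e-15). Of the 8 listed genes with the element, 7 turned downward, as did 6 of the 10 listed genes with a promoter but no match. Outside the list, 13 tested genes held the element, of which 5 turned downward and 4 upward. The list's exceptions were Ern1, the sensor kinase IRE1, a trough at 11.1 ± 1.04, 8.98 ± 0.438 and 14.4 ± 1.34 CPM, and Edem1, a late rise in the disposal of misfolded glycoproteins, at 33.6 ± 1.2, 33.8 ± 3.32 and 44.4 ± 2.31 CPM, with a turn that was not called without replicate 1 or 2 of day 2, replicate 2 or 3 of day 4 or replicate 1 of day 6 (turns 0.26 to 0.36). A match is a stretch of letters and says nothing of whether a factor was bound.

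Cytosolic chaperones split. Of 14 heat shock genes, 7 turned downward and 3 upward (median turn -0.37). Hspa8, the constitutive Hsp70, was a peak at 2542, 2606 and 2496 CPM at day 2, 3389, 3337 and 3330.0 CPM at day 4 and 2100.0, 2050.3 and 2095 CPM at day 6. Its day 6 libraries were below those of day 2 (turn -1.08 ± 0.07, adjusted p = 2.68e-15). The upward turns were slowed falls of Hsp90aa1 (2692 ± 72.6, 1678 ± 30.4 and 1504 ± 43.7 CPM), Hsp90ab1 and Hspb1. Cycs, which encodes cytochrome c, was a peak, at 168, 186 and 177 CPM at day 2, 275, 271 and 287 CPM at day 4 and 113, 100.1 and 109 CPM at day 6 (turn -2.01 ± 0.08, adjusted p = 5.75e-22). Its day 6 level was the lowest of the 3 days. The list of oxidative phosphorylation, which includes Cycs, counted 7 downward and 4 upward of 25 gene models. The sign of that list's median was negative or positive depending on the scaling. Of 13 mitochondrially encoded genes, 7 turned downward and 1 upward, and mt-Cytb was at 5209.7, 5836 and 5489 CPM at day 2, 9718, 8723 and 9088 CPM at day 4 and 5409, 4835 and 5342 CPM at day 6 (turn -1.56 ± 0.08, adjusted p = 1.6e-17). The share of all counts taken by these genes was 1.38 to 1.45% at day 2, 2.37 to 2.54% at day 4 and 1.98 to 2.01% at day 6. Without these genes and Gm42418, 5605 genes turned.

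Targets of p53, the stress-activated tumour suppressor, traced the opposite path. Of 26 tested targets, 14 turned upward and 2 downward (median turn 0.46), and 9 were troughs. Ccng1, which encodes cyclin G1, was at 285, 275 and 294 CPM at day 2, 197, 201 and 193 CPM at day 4 and 271, 275 and 273 CPM at day 6. The day 4 libraries were the lowest and day 6 came back to the lower end of day 2 (turn 1.0 ± 0.08, adjusted p = 3.43e-13). Mdm2, the ubiquitin ligase that degrades p53, was at 175 ± 3.14, 135 ± 3.72 and 163 ± 2.69 CPM (turn 0.66 ± 0.08, adjusted p = 8.92e-09). Cdkn1a, the cell cycle inhibitor p21, was at 28.5, 29.8 and 30.9 CPM at day 2, 26.2, 20.7 and 24.7 CPM at day 4 and 36.8, 37.2 and 37.2 CPM at day 6 (turn 0.96 ± 0.14, adjusted p = 4.61e-07). Trp53inp1, Zmat3, Polk, Rrm2b, Ercc5 and Aen were further troughs. The apoptosis gene Bax was the exception, a peak at 95.6 ± 9.08, 126 ± 5.69 and 83.8 ± 1.2 CPM (turn -1.0 ± 0.09, adjusted p = 3.95e-11), and Ddit4 fell late.

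Other troughs included genes of cell junctions, signalling and chromosome structure. Pycr1, of proline synthesis, had the largest smaller step among eligible troughs, at 8.87, 9.08 and 9.73 CPM at day 2, 2.71, 3.65 and 3.97 CPM at day 4 and 6.66, 5.18 and 5.89 CPM at day 6 (turn 2.26 ± 0.30, adjusted p = 1e-07). The day 4 libraries did not overlap the others, which the rule for naming troughs required, and day 6 stayed below day 2. Of 11 genes of the Nodal pathway, 5 turned upward and 0 downward, among them Skil, Smad7, Furin and Tdgf1, and 6 were not called. At an unadjusted p under 0.05, 7 turned upward and 0 downward, and DESeq2 and limma-voom each called 4 upward and 0 downward. Mgll, a lipase of monoacylglycerols, was at 7.51 ± 0.725, 3.63 ± 0.884 and 6.08 ± 0.594 CPM (turn 1.8 ± 0.32, adjusted p = 2.8e-05), and Loxl1, which cross-links elastin, at 9.34 ± 0.92, 5.5 ± 0.457 and 9.41 ± 0.441 CPM (turn 1.52 ± 0.25, adjusted p = 6.6e-06). E-cadherin (Cdh1) dipped to 249 ± 14.2, 186 ± 5.15 and 231 ± 8.4 CPM at days 2, 4 and 6 (turn 0.74 ± 0.08, adjusted p = 3.17e-09), as did the junction genes Dsp, Tjp1 and Epcam. Of the list of 20 simple epithelium genes 8 turned upward and 4, all keratin genes whose rise slowed, turned downward.

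Several regulators of cohesin were also lower at day 4 than on either side. Of 18 tested genes of CTCF and cohesin, 10 turned upward and 2 downward (median turn 0.25), and 6 were troughs. Nipbl, which loads cohesin on DNA, was at 159, 171 and 163 CPM at day 2, 122, 126 and 122 CPM at day 4 and 158, 169.7 and 149.9 CPM at day 6 (turn 0.77 ± 0.09, adjusted p = 2.54e-09). Its day 6 libraries came back to the day 2 level. Pds5a, Pds5b and Wapl, which regulate the release of cohesin, Stag2, a core subunit, and Esco2, an acetyltransferase, were the other troughs, with Wapl at 324 ± 5.82, 264 ± 5.56 and 295 ± 6.7 CPM. Rad21 went on falling more slowly at 966 ± 10.4, 715 ± 10.4 and 635 ± 5.43 CPM, and Smc3 fell and stopped at 515 ± 13.5, 357 ± 6.34 and 355 ± 17.8 CPM. The downward turns were Cdca5 and Ctcfl, the germline relative of CTCF, both peaks. Ctcf itself was at 229, 236 and 222 CPM at day 2, 210.4, 211 and 205 CPM at day 4 and 188, 192 and 194 CPM at day 6. It fell by similar amounts in both steps, of -0.13 ± 0.04 and -0.13 ± 0.04, and its turn was 0.0034 with a 95% interval of -0.15 to 0.16 (adjusted p = 0.98).

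Subunits of the NuRD complex, which joins a chromatin remodeller with histone deacetylases, were mostly not called. Of 17 tested, 5 turned upward and 1 downward (median turn 0.10). Gatad2b rose late, at 47.5, 47.6 and 42.7 CPM at day 2, 42.2, 44 and 44.7 CPM at day 4 and 64.6, 69 and 61.5 CPM at day 6 (turn 0.66 ± 0.11, adjusted p = 8.67e-06). Its days 2 and 4 libraries were close and every day 6 library was higher. Mta3 fell and stopped at 244 ± 4.49, 186 ± 6.89 and 177 ± 5.63 CPM, and Mta2, its paralog, rose and stopped at 247 ± 17, 337 ± 29.2 and 359 ± 12 CPM, a turn not called without replicate 3 of day 4 (turn -0.22). No turn was called for the ATPase gene Chd4 (turn 0.10, 95% interval -0.06 to 0.25) or for Mbd3 (turn -0.12, -0.28 to 0.04), which joins the remodeller to the deacetylases. Without replicate 2 of day 2, Mbd3 passed at -0.20. Of 22 BAF subunits 5 turned upward and 4 downward, near the shares of 17.1% and 17% over all tested genes. Smarcd3 was among the downward turns, a rise of 3.04 ± 0.511, 11.7 ± 0.948 and 9.77 ± 1.19 CPM that stopped. Of 27 Polycomb genes 9 turned upward and 4 downward, including Suz12, a core subunit whose fall stopped at 252 ± 8.94, 155 ± 7.03 and 164 ± 2.95 CPM.

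**Figure D2:**
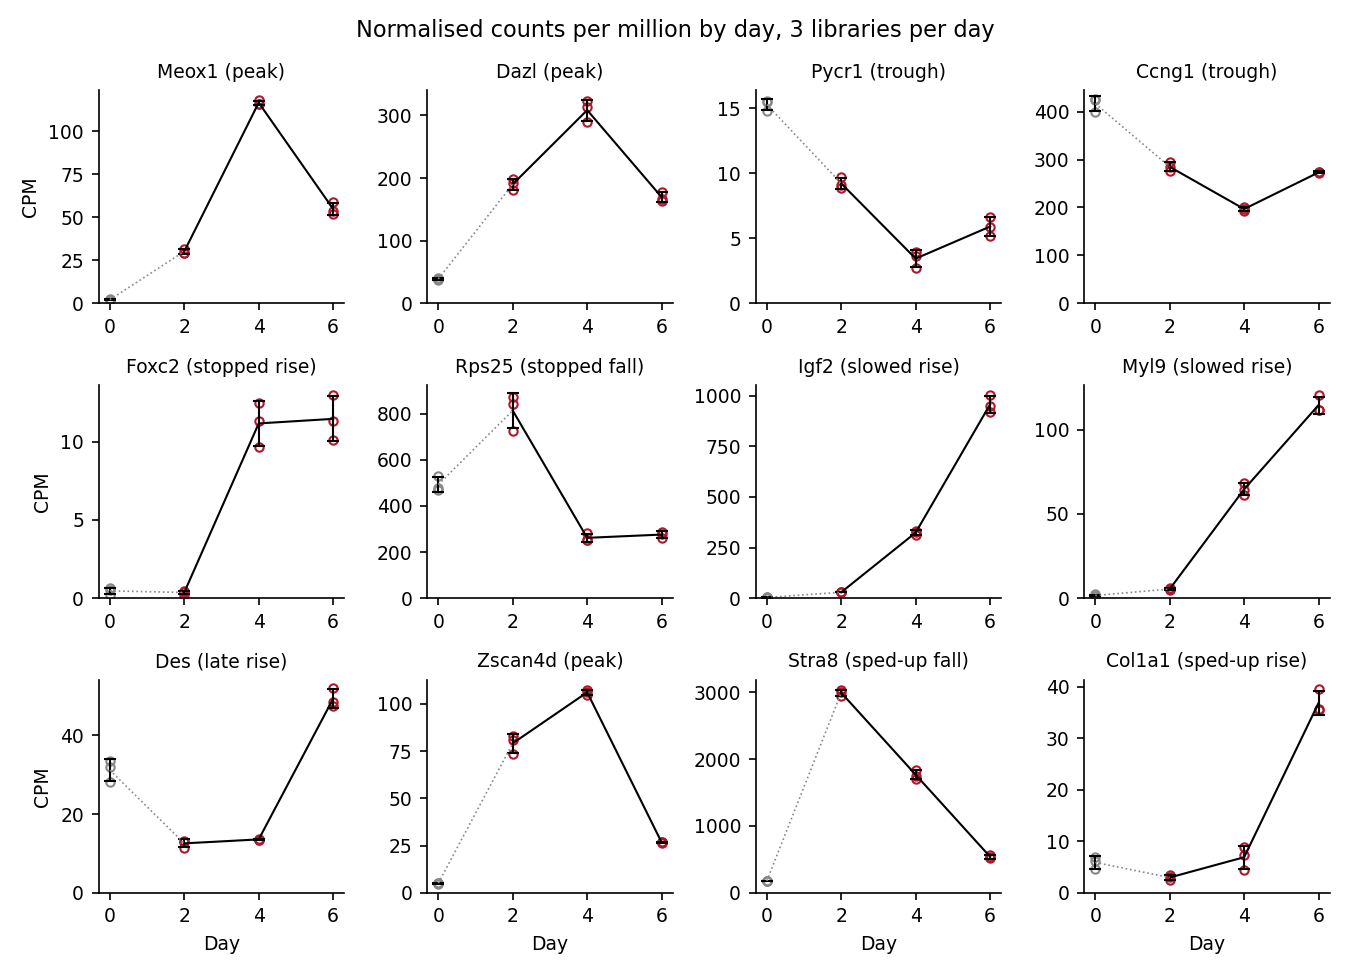
Normalised CPM of 12 genes by day; open circles are libraries (3 per day), bars the mean ± SD, the solid line joins the means of days 2, 4 and 6, and day 0 is in grey. Meox1, Dazl and Zscan4d are highest at day 4 and Pycr1 and Ccng1 lowest, Foxc2 and Rps25 level off after day 4, and Des and Col1a1 climb mainly after it. The axes are linear in CPM, while the shapes named refer to log2 steps.

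Genes that rose to day 4 and then stopped included mesoderm and neural factors. Foxc2 (ENSMUSG00000046714, chromosome 8, 121116171 to 121118895, plus strand), a forkhead factor of paraxial mesoderm that overlaps the gene model Gm20388, was at 0.227, 0.402 and 0.455 CPM at day 2, 12.5, 11.3 and 9.65 CPM at day 4 and 11.3, 13 and 10.1 CPM at day 6. Its second step was 0.02 ± 0.13 with a 95% interval of -0.24 to 0.27. The rule for naming stopped rises required an interval within the bound of 0.322. The turn of Foxc2 was -4.93 ± 0.34 (adjusted p = 1.75e-14). Spon1, which encodes the matrix protein F-spondin, levelled off at 1.17 ± 0.309, 12.9 ± 1.7 and 12.2 ± 1.03 CPM (turn -3.49 ± 0.27, adjusted p = 2.39e-13), and the protease gene Prss23 at 5.82 ± 0.884, 29.1 ± 1.23 and 28 ± 2.33 CPM (turn -2.38 ± 0.18, adjusted p = 1.05e-13). Of 24 mesoderm regulators, 11 turned downward and 2 upward (median turn -0.44). Foxf1, of lateral mesoderm, went on rising more slowly, at 0.606, 0.884 and 1.09 CPM at day 2, 12.2, 13 and 12.5 CPM at day 4 and 23.8, 20.1 and 20.7 CPM at day 6 (turn -3.08 ± 0.29, adjusted p = 6e-11), and it too shares Gm20388. Tbx2, Osr1, Hand2, Meis1 and Tcf21 also slowed, and Meis2 and Gata5 stopped. Osr1 was at 0.16 ± 0.0682, 6.24 ± 0.127 and 13.3 ± 1.07 CPM, with a day 2 total of 6 counts over 3 libraries. The upward turns were stopped falls of Msx1 and Eomes.

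Of 17 neural progenitor genes, 10 turned downward and 2 upward (median turn -0.56, or -0.58 with 3 genes that had a day at or under 3 counts set to that floor). Irx3, a homeobox factor of the neural tube, was at 37.2, 44.4 and 39.7 CPM at day 2, 56, 63.5 and 69 CPM at day 4 and 47.8, 49.1 and 44.9 CPM at day 6. Every day 4 library was above those of the other days (turn -1.03 ± 0.12, adjusted p = 1.2e-08). Pax6 rose and stopped at 19.5 ± 0.522, 26.7 ± 2.4 and 25.3 ± 2.49 CPM (turn -0.53 ± 0.17, adjusted p = 0.0148), a turn not called without replicate 2 or 3 of day 4 (turns -0.47 to -0.43). Olig2, Neurog2 and Nkx6-1 followed the same peak or plateau at levels of at most 3.77 CPM in any library. Vim and Msi1 were the upward turns, both troughs. Among 19 genes of neurons, 3 turned upward and 1 downward, no higher a share in either direction than over all tested genes.

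Falls that stopped were the most common shape, and 33 of the 1080 were ribosomal protein genes. Of 89 tested cytosolic ribosomal protein genes, 46 turned upward and 9 downward (median turn 0.28), with 33 stopped falls and 11 troughs. Rps25 (ENSMUSG00000009927, chromosome 9, 44407139 to 44410427, plus strand) was at 726, 875 and 840.3 CPM at day 2, 252, 251 and 282 CPM at day 4 and 280.1, 259 and 288 CPM at day 6. The day 4 and day 6 libraries overlapped and all lay below day 2, which the rule for naming stopped falls required of day 4 (turn 1.72 ± 0.13, adjusted p = 8.15e-09). Rpl17 fell and stopped at 2061 ± 82.1, 1119 ± 51 and 1162 ± 6.86 CPM (turn 0.94 ± 0.08, adjusted p = 4.86e-12), and Rps19 dipped at 279 ± 9.37, 211 ± 3.6 and 267 ± 1.1 CPM (turn 0.75 ± 0.08, adjusted p = 1.07e-09). Rpl37 went the other way, a peak at 338 ± 15, 418 ± 11.7 and 252 ± 4.37 CPM (turn -1.04 ± 0.07, adjusted p = 3.33e-14). Ribosomal protein genes have many near-identical processed copies, Rps25 overlaps Ccdc84 and Trappc4, and how reads with several positions were counted is not stated, so single members are uncertain. Their summed share of all counts was 8.49 to 8.55% at day 2, 6.91 to 7.15% at day 4 and 6.60 to 6.78% at day 6. Camk2n1, an inhibitor of CaM kinase II, was at 51.1, 51.5 and 54 CPM at day 2, 16.6, 18.3 and 17.3 CPM at day 4 and 16.2, 17.8 and 16.5 CPM at day 6, with no further fall called after day 4 (turn 1.52 ± 0.15, adjusted p = 7.2e-11). Atp1b2, a sodium pump subunit, stopped at 18.8 ± 2.06, 7.83 ± 0.382 and 7.98 ± 1.62 CPM and Gfra1, a GDNF receptor, at 35.9 ± 1.86, 14.5 ± 0.755 and 13.7 ± 0.90 CPM.

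Among DNA methylation genes, turns were mostly upward, in several shapes. Of 17 tested, 11 turned upward and 2 downward (median turn 0.29). Dnmt3a, a de novo methyltransferase, was at 354, 340.4 and 360.5 CPM at day 2, 184, 191 and 191 CPM at day 4 and 182, 184 and 187 CPM at day 6. Its second step was -0.03 ± 0.04, with an interval of -0.12 to 0.06 (turn 0.87 ± 0.08, adjusted p = 8.8e-12). Tet1 and Tet2, which oxidise methylated cytosine, also fell and stopped, Dnmt3b and Zfp57 slowed, and Tet3, Gadd45a and Gadd45b rose late. The downward turns were Uhrf2, a rise that stopped at 97.2 ± 2.52, 133 ± 4.01 and 135 ± 2.74 CPM, and Dnmt3l, a peak at 56.5 ± 0.69, 65.3 ± 0.759 and 53.4 ± 0.931 CPM.

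In genes of cholesterol synthesis, falls slowed or stopped at day 4. Of 25 tested, 14 turned upward and 1 downward (median turn 0.49), with 8 slowed falls, 4 stopped falls and 2 troughs. Hmgcs1, an early enzyme of the pathway, was at 254, 259.6 and 241 CPM at day 2, 112, 107 and 114 CPM at day 4 and 88.3, 92.2 and 93.4 CPM at day 6 (turn 0.90 ± 0.08, adjusted p = 4.16e-11). Day 6 libraries were lower than those of day 4, by a much smaller step. Srebf2, the transcription factor that drives these genes, was a trough at 131, 126 and 135 CPM at day 2, 86, 75.5 and 79.1 CPM at day 4 and 101, 95.2 and 99.3 CPM at day 6 (turn 1.0 ± 0.09, adjusted p = 1.69e-11). Msmo1 was the exception, with a fall that sped up at 93.8 ± 3.5, 56.6 ± 3.07 and 28.5 ± 1.4 CPM, a turn not called without replicate 3 of day 2, replicate 1 or 2 of day 4 or replicate 2 or 3 of day 6 (turns -0.25 to -0.20).

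**Figure D3:**
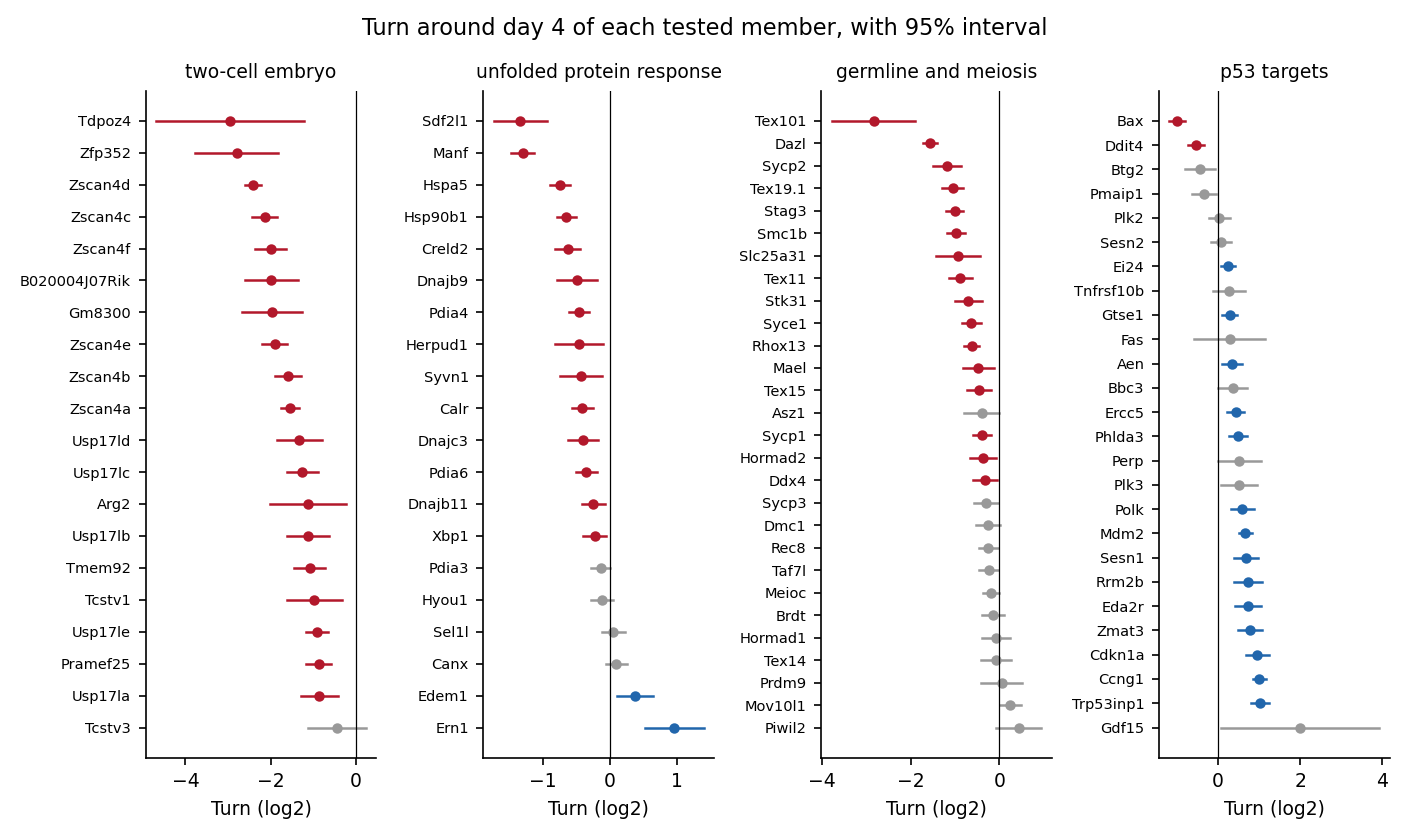
Turn around day 4 (fitted log2, points) with its 95% interval (lines) for every tested member of 4 lists, red where a downward turn was called, blue where an upward turn was called and grey where none was. The two-cell embryo genes (19 of 20 downward), the unfolded protein response (14 of 20 downward) and germline and meiosis genes (16 of 28 downward) lie mostly left of 0, and p53 targets (14 of 26 upward) mostly right.

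Pou5f1, Nanog and Sox2, the core of pluripotency, fell in both steps but did not bend the same way. Pou5f1 (ENSMUSG00000024406, chromosome 17, 35506018 to 35510772, plus strand) was at 658, 660.2 and 645 CPM at day 2, 359, 358 and 340.1 CPM at day 4 and 296, 275 and 302 CPM at day 6. Its fall slowed, with steps of -0.89 ± 0.04 and -0.28 ± 0.05 (turn 0.62 ± 0.08, adjusted p = 5.64e-08). Nanog, at 82.1, 80.5 and 86.2 CPM at day 2, 23.1, 23.2 and 20.02 CPM at day 4 and 8.3, 10.2 and 7.57 CPM at day 6, slowed as well (turn 0.52 ± 0.15, adjusted p = 0.00534). Sox2, at 181, 186 and 176 CPM at day 2, 125, 124 and 126 CPM at day 4 and 64.4, 69.99 and 68.6 CPM at day 6, instead sped up, with steps of -0.54 ± 0.05 and -0.89 ± 0.05 (turn -0.35 ± 0.08, adjusted p = 0.000858). Dppa2 and its neighbour Dppa4 also fell faster after day 4, Dppa2 at 97.9 ± 4.27, 68.3 ± 5.81 and 36.3 ± 1.35 CPM and Dppa4 at 226 ± 16.8, 135 ± 16.2 and 57.5 ± 5.99 CPM. The Dppa2 turn was not called without replicate 2 of day 4 (turn -0.28). The Dppa4 turn (-0.47 ± 0.16, adjusted p = 0.0456) was not called without replicate 1 of day 2, replicate 2 or 3 of day 4 or replicate 1 or 2 of day 6 (turns -0.50 to -0.30). Tdgf1, a co-receptor of Nodal, rose at 12.2 ± 0.583, 22 ± 0.775 and 50.4 ± 2.18 CPM, and its upward turn (0.35 ± 0.13, adjusted p = 0.0379) was not called without replicate 2 of day 2, replicate 1 or 2 of day 4 or replicate 2 or 3 of day 6 (turns 0.28 to 0.35). Over the list of 17 core genes, 6 turned upward and 4 downward. Of 16 naive pluripotency genes 6 turned upward and 2 downward, with slowed falls of Tfcp2l1, Esrrb, Zfp42 and Klf2. Zfp42 was at 252 ± 12.8, 147 ± 2.35 and 113 ± 5.72 CPM and Esrrb at 71.5 ± 2.59, 28.1 ± 3.2 and 18 ± 1.95 CPM. Igfbp2, which binds insulin-like growth factors, had the largest turn among eligible slowed falls, at 458, 442 and 467 CPM at day 2, 152, 147 and 150.3 CPM at day 4 and 111, 117 and 116 CPM at day 6 (turn 1.22 ± 0.08, adjusted p = 5.42e-15).

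Many imprinted genes rose more slowly after day 4 on the log2 scale. In CPM, Igf2, H19 and Meg3 gained more in the second step than in the first, and Peg3 less. Of 30 tested, 18 turned downward and 6 upward (median turn -0.44), with 12 slowed rises. Igf2, the fetal growth factor, was at 29, 28.9 and 28.8 CPM at day 2, 310.3, 328 and 332 CPM at day 4 and 922, 1002 and 947 CPM at day 6. It gained in both steps, by 3.48 ± 0.05 and then 1.57 ± 0.04 (turn -1.92 ± 0.08, adjusted p = 6.41e-21), so it was still rising at day 6. The gene overlaps Igf2os and Gm49394, and without stranded counting reads from either strand cannot be told apart. H19, next to it, was at 27.7 ± 0.998, 159 ± 4.08 and 395 ± 13.1 CPM, Plagl1, a zinc finger factor, at 27.3 ± 1.59, 408 ± 76.6 and 791 ± 31.3 CPM, Peg3 at 479.7 ± 32.7, 1522 ± 32.5 and 2195 ± 27.8 CPM and Meg3 at 153 ± 2.52, 440.5 ± 11.4 and 996 ± 12.4 CPM. Grb10, an adaptor that dampens insulin signalling, fell and stopped at 22.1 ± 0.415, 6.83 ± 1.04 and 6.35 ± 0.454 CPM.

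Some contractile and basement membrane genes also rose more slowly after day 4 on the log2 scale. Myl9, a smooth muscle myosin light chain, was at 5.84, 5.31 and 5.0 CPM at day 2, 64.4, 61.2 and 68.4 CPM at day 4 and 120.5, 112 and 112 CPM at day 6. Tagln was at 8.92 ± 1.46, 89.9 ± 7.43 and 162 ± 3.05 CPM and Acta2, smooth muscle actin, at 0.726 ± 0.256, 19 ± 1.94 and 63.2 ± 5.47 CPM, and all 3 rises slowed, with turns of -2.74, -2.46 and -2.95. Actc1, cardiac actin, rose to 4.01 ± 0.826 CPM at day 4 and 8.84 ± 0.691 CPM at day 6 after 1 count over the day 2 libraries, and the long noncoding RNA Fendrr to 1.95 ± 0.836 and 5.59 ± 0.132 CPM after 0 counts. No fold is given for either, since it would rest on the prior count. Of 22 muscle genes, 8 turned downward and 6 upward, so the list as a whole had no direction (median turn -0.06). Of 20 regulators and matrix genes of extraembryonic endoderm, 11 turned downward and 1 upward (median turn -0.38). Col4a1, a basement membrane collagen, slowed at 1338 ± 31.4, 3380.1 ± 27.8 and 5365 ± 243 CPM and Lama1, a laminin, at 416 ± 5.75, 929.5 ± 12 and 1042 ± 12 CPM. Dab2, an endocytic adaptor, peaked at 361, 377 and 364 CPM at day 2, 544, 537 and 526 CPM at day 4 and 364, 374 and 357 CPM at day 6 (turn -1.1 ± 0.07, adjusted p = 2.18e-15), and its day 6 libraries were back at the day 2 level. Cubn, an endocytic receptor that works with it, peaked at 191 ± 10.2, 291 ± 7.92 and 235 ± 0.188 CPM. Sox17 slowed at 19.9 ± 0.222, 35.7 ± 1.12 and 50.2 ± 2.02 CPM, a turn not called without replicate 2 of day 4 (turn -0.30), and Gata6 had no turn called (turn 0.20, 95% interval -0.0036 to 0.40). In bulk RNA, a change in the number of cells of a type and a change in RNA per cell cannot be told apart.

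Genes of the two-cell embryo fell after day 4 and had the lowest median turn of the 49 lists. Of 20 tested, 19 turned downward and 0 upward, and all 20 fell in the second step (median turn -1.44, against 0.00977 over all tested genes). At an unadjusted p under 0.05, 19 turned downward and 0 upward, and 0 turned upward by DESeq2 or limma-voom. There were 10 late falls, 6 falls that sped up and 3 peaks. Zscan4c (ENSMUSG00000054272, chromosome 7, 11005745 to 11010547, plus strand), of the zinc finger family that marks this state, was at 33.3, 32.2 and 32.7 CPM at day 2, 33.9, 36.2 and 33.9 CPM at day 4 and 7.48, 9.07 and 8.72 CPM at day 6. Its first step was 0.08 ± 0.07 with a 95% interval of -0.06 to 0.23 and its second -2.06 ± 0.10 (turn -2.14 ± 0.15, adjusted p = 8.37e-15). Zscan4d rose first, at 81, 82.9 and 73.4 CPM at day 2, 105, 106 and 107 CPM at day 4 and 26.6, 26.9 and 26.5 CPM at day 6 (turn -2.41 ± 0.09, adjusted p = 5.75e-22). Both were lower in every day 6 library than in any library of days 2 and 4. For Zscan4c, the rule for naming late falls required this between days 4 and 6. Zfp352, another gene of this stage, was at 2.32 ± 0.649, 3.2 ± 0.451 and 0.635 ± 0.179 CPM, and Usp17le, a ubiquitin protease, at 50.6 ± 0.892, 40.5 ± 2.38 and 17.3 ± 0.958 CPM. Tcstv3 was the member with no turn called (95% interval -1.13 to 0.24). Zscan4 and Usp17l genes are near-identical copies, so reads may be split among them. The single members are uncertain, and the 19 downward turns are not 19 separate observations.

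Des, Mmp2 and Col1a2 rose after day 4. Des (ENSMUSG00000026208, chromosome 1, 75360329 to 75368579, plus strand), which encodes the muscle filament desmin, was at 11.4, 13.3 and 13 CPM at day 2, 13.6, 13.5 and 13.6 CPM at day 4 and 48.4, 52.1 and 47.5 CPM at day 6. Its first step was 0.11 ± 0.10 (95% interval -0.09 to 0.32) and its second 1.86 ± 0.08 (turn 1.75 ± 0.17, adjusted p = 8.26e-11). Mmp2, a matrix protease, was at 20.01, 17.6 and 17.2 CPM at day 2, 17.4, 17.6 and 20.9 CPM at day 4 and 58.1, 57.8 and 57.7 CPM at day 6 (turn 1.64 ± 0.15, adjusted p = 2.84e-11), and Col1a2, a chain of type I collagen, at 12.9 ± 1.34, 14.8 ± 0.39 and 49.8 ± 1.61 CPM (turn 1.57 ± 0.16, adjusted p = 4.62e-10). Col1a1, the other chain, sped up at 2.5, 3.05 and 3.36 CPM at day 2, 7.26, 4.52 and 8.94 CPM at day 4 and 35.4, 39.4 and 35.6 CPM at day 6 (turn 1.28 ± 0.31, adjusted p = 0.00169). Of 25 genes of feeder fibroblasts and matrix, 9 turned upward and 2 downward (median turn 0.49). The downward turns were Col3a1, still rising at 0.348 ± 0.153, 8.98 ± 0.156 and 79.5 ± 5.98 CPM, and Twist2, a rise that stopped. The summed feeder markers given above rose over the same days, and their part in these turns was not tested. Rgl1, a Ral activator, rose late at 8.55 ± 1.28, 8.34 ± 1.1 and 21.5 ± 2.15 CPM and Car4, a carbonic anhydrase, at 35.3 ± 1.62, 32.9 ± 0.592 and 76.7 ± 1.39 CPM. Timp3, an inhibitor of matrix proteases, sped up at 15.1 ± 0.826, 28.4 ± 3.97 and 77.8 ± 3.95 CPM (turn 0.49 ± 0.15, adjusted p = 0.0071), a turn not called without replicate 3 of day 4 (turn 0.31). Il6st, the shared receptor subunit of LIF signalling, also rose faster, at 77.5 ± 1.85, 103 ± 2.6 and 169.6 ± 4.4 CPM (turn 0.31 ± 0.08, adjusted p = 0.00309). Npr3, the clearance receptor of natriuretic peptides, sped up at 2.8 ± 0.335, 7.03 ± 1.05 and 28.7 ± 2.12 CPM, a turn not called without replicate 1 or 2 or 3 of day 2, replicate 2 or 3 of day 4 or replicate 1 or 3 of day 6 (turns 0.55 to 0.71).

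Cell cycle genes split by phase. Of 26 S phase genes, 9 turned downward and 1 upward (median turn -0.17), 7 of them late falls. Tyms, which makes thymidylate, was at 39, 39.1 and 40.6 CPM at day 2, 35.9, 37.8 and 44.1 CPM at day 4 and 25.4, 24.2 and 24.1 CPM at day 6 (turn -0.64 ± 0.14, adjusted p = 0.000308). Ccne2, cyclin E2, peaked at 44.6 ± 1.4, 70.3 ± 3.28 and 50.7 ± 1.07 CPM (turn -1.14 ± 0.10, adjusted p = 6.4e-12). Of 25 genes of G2 and mitosis, 13 turned upward and 2 downward (median turn 0.31), 9 of them stopped falls. Aurkb, a mitotic kinase, was a trough at 74, 69.1 and 74.6 CPM at day 2, 56.3, 56.2 and 61.3 CPM at day 4 and 79.5, 77.2 and 79.6 CPM at day 6 (turn 0.78 ± 0.10, adjusted p = 2.53e-08). Top2a, which untangles chromosomes, fell and stopped at 703 ± 12.7, 542 ± 4.27 and 577 ± 7.94 CPM. Birc5, the partner of Aurkb in the chromosomal passenger complex, was a peak at 148 ± 7.29, 179 ± 12.8 and 147 ± 7.68 CPM (turn -0.56 ± 0.09, adjusted p = 2.63e-06), as was the checkpoint kinase Bub1b at 471 ± 39.6, 588 ± 62.8 and 464 ± 28.6 CPM. Histone gene Hist1h2af fell late at 95.6 ± 7.51, 93.1 ± 3.26 and 36.4 ± 4.71 CPM.

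Retinoic acid genes bent in several directions, and 2 of them carry the classical receptor site before their start. The DR5 element is a pair of receptor half-sites in the same direction with 5 bases between them. Each half-site was searched as AGGTCA, with G also allowed as the first letter and T as the third, on both strands of the same 250-base windows. It was found before 28 of 27025 genes (0.104%), and before 2 of the 16 listed retinoic acid genes with a promoter in the table, Rarb and Cyp26a1. Both stretches are shown along the gene's strand with the element in capitals.
Rarb, chr14:16575477-16575569, minus strand: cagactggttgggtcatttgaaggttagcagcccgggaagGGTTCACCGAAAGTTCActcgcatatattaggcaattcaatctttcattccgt
Cyp26a1, chr19:37697736-37697807, plus strand: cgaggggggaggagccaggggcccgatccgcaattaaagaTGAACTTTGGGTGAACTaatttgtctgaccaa

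Rarb, the receptor, was at 65.9, 62.5 and 65.3 CPM at day 2, 138, 138 and 133 CPM at day 4 and 155, 160.0 and 155 CPM at day 6. Its rise slowed, with steps of 1.08 ± 0.05 and 0.20 ± 0.05 (turn -0.88 ± 0.09, adjusted p = 1.1e-10). Cyp26a1, which degrades retinoic acid, was at 729, 709 and 746 CPM at day 2, 752, 759 and 734 CPM at day 4 and 608, 602 and 579 CPM at day 6. It fell late, with a first step of 0.04 ± 0.04 and a second of -0.33 ± 0.04 (turn -0.37 ± 0.08, adjusted p = 0.000168). Its paralog Cyp26b1 went on rising, more slowly, at 161 ± 7.59, 351 ± 10.5 and 407 ± 15.5 CPM (turn -0.91 ± 0.08, adjusted p = 6.45e-12). Of 19 listed genes, 7 turned downward and 5 upward (median turn -0.11). Stra8, a gene induced by retinoic acid at the entry into meiosis, was at 2941, 3036 and 2999.5 CPM at day 2, 1709, 1843 and 1747 CPM at day 4 and 532, 570.2 and 516 CPM at day 6. Its fall sped up (turn -0.95 ± 0.08, adjusted p = 7.77e-13). Among synthesis enzymes, Aldh1a2 slowed at 2.78 ± 0.125, 21.5 ± 0.502 and 25.8 ± 1.16 CPM and Aldh1a1 stopped at 8.04 ± 0.69, 25.6 ± 2.0 and 28.9 ± 2.44 CPM. Of the binding proteins, Crabp1 rose and stopped at 6.67, 6.11 and 5.64 CPM at day 2, 28.8, 26.6 and 29 CPM at day 4 and 27.3, 25.7 and 25 CPM at day 6 (turn -2.29 ± 0.15, adjusted p = 4.83e-15), while Crabp2 fell and slowed at 368 ± 28, 137 ± 1.69 and 113 ± 13.2 CPM (turn 1.13 ± 0.11, adjusted p = 3.39e-08). The receptors Rarg and Rara were troughs, Rarg at 62.6 ± 2.56, 22 ± 2.68 and 25.5 ± 1.92 CPM (turn 1.76 ± 0.14, adjusted p = 1.32e-12). Outside the list, 4 tested genes held the element, of which 1 turned upward and 1 downward.

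Most Hox genes had no turn called, except in paralog groups 5 to 8, where only 4 of 11 had none. Of 12 tested genes of paralog groups 1 to 4, 4 turned downward and 1 upward, of 11 in groups 5 to 8, 5 and 2, and of 12 in groups 9 to 13, 2 and 0, where an unadjusted p under 0.05 gave 3 and 0 and DESeq2 and limma-voom each 2 and 0. Over all tested genes the shares were 17% downward and 17.1% upward, so groups 9 to 13 lay near the downward share and below the upward one. Late falls made up 3 of the 11 downward turns. Within the HoxC cluster, Hoxc8 at 16.9 ± 1.28, 33.7 ± 2.01 and 32.3 ± 1.32 CPM and Hoxc9 at 9.18 ± 0.208, 19.3 ± 0.865 and 18.6 ± 2.25 CPM rose and stopped, Hoxc6 slowed at 4.37 ± 0.12, 9.88 ± 0.487 and 12.1 ± 1.96 CPM and Hoxc10 peaked at 3.11, 4.1 and 3.18 CPM at day 2, 6.49, 5.67 and 7.52 CPM at day 4 and 3.82, 4.0 and 3.78 CPM at day 6 (turn -1.64 ± 0.30, adjusted p = 2.92e-05). All 4 overlap the gene model of Hoxc5. In the HoxB cluster, Hoxb3 peaked at 20.01 ± 0.428, 33.9 ± 1.78 and 29.1 ± 2.23 CPM, Hoxb4 and Hoxb5 fell late, and Hoxb7 rose late at 28.3 ± 2.24, 25.8 ± 1.43 and 34.2 ± 1.03 CPM. Hoxd4 rose and stopped at 1.82 ± 0.254, 7.9 ± 0.858 and 7.42 ± 1.54 CPM (turn -2.19 ± 0.30, adjusted p = 2.76e-07), and it overlaps Hoxd3.

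**Figure D4:**
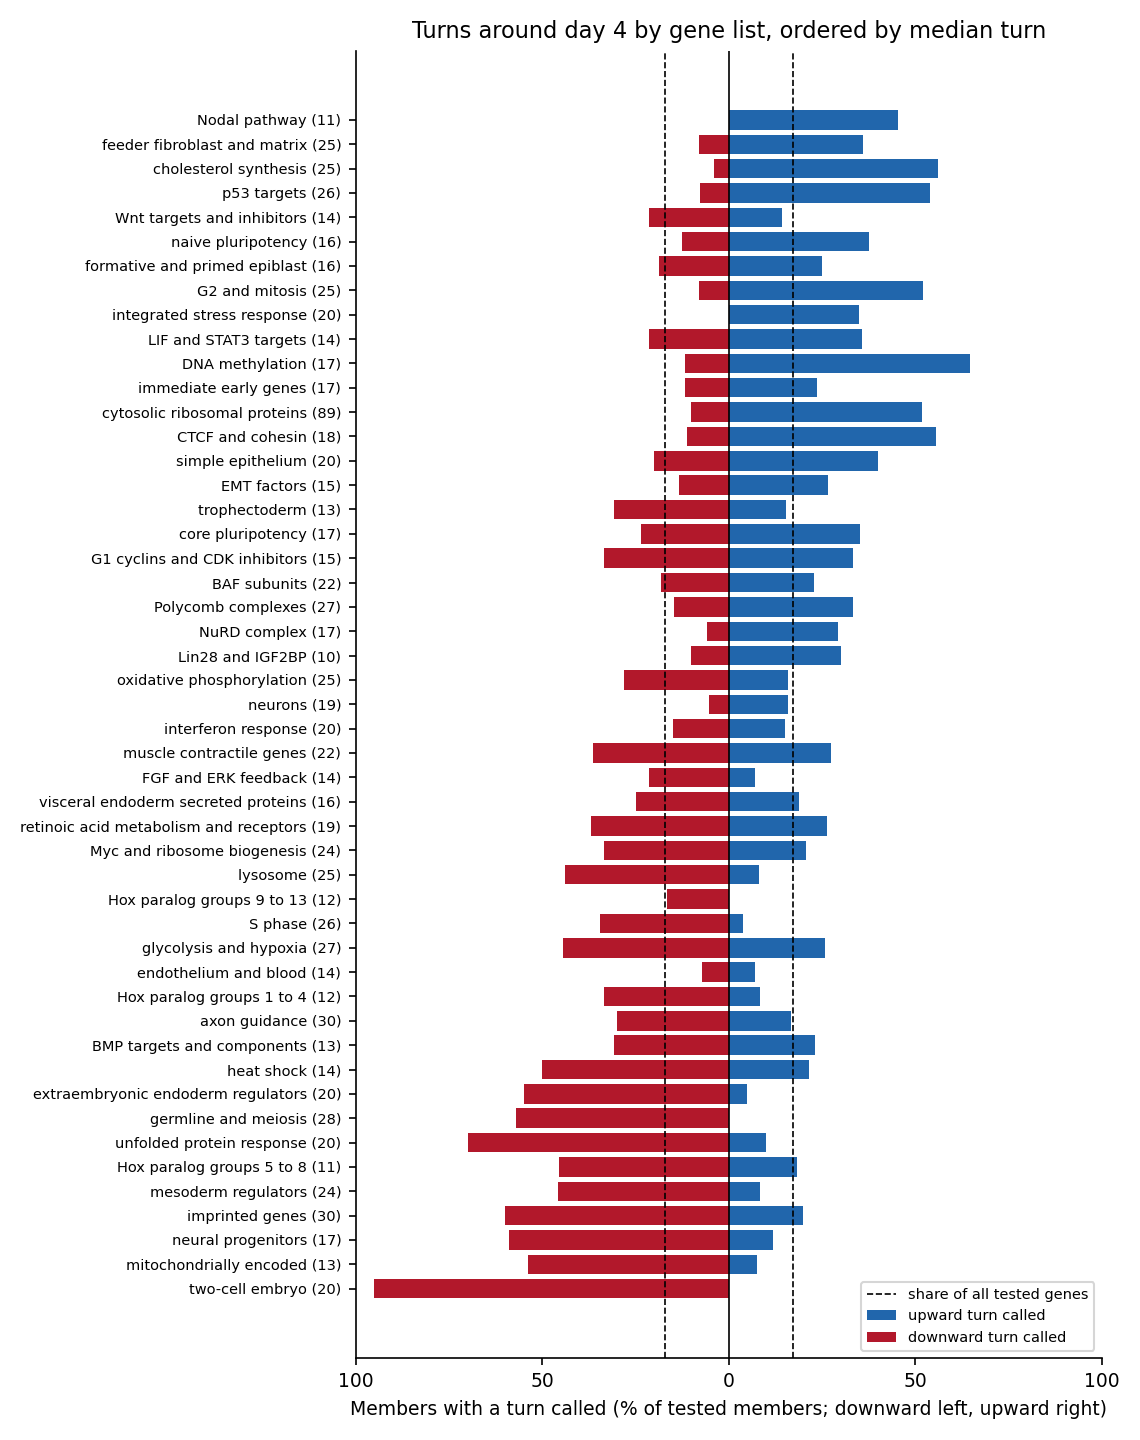
Share of the tested members of each of 49 gene lists (number tested in brackets) with a downward turn (red, to the left) or an upward turn (blue, to the right), ordered by the list's median turn. Dashed lines mark the shares over all tested genes, 17% and 17.1%; two-cell embryo genes lie at the bottom with 19 of 20 downward.

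The remaining lists are given by their counts, beside shares of 17.1% upward and 17% downward over all tested genes. Several lie near those shares and are not read as results. Lysosome genes turned downward in 11 of 25 cases and upward in 2, with 7 stopped rises, among them the membrane protein gene Cd63 at 192 ± 11.5, 437 ± 36.1 and 419.7 ± 39.2 CPM. Glycolysis and hypoxia genes split 12 downward to 7 upward of 27, with Ldha, lactate dehydrogenase, a peak at 338 ± 8.4, 622 ± 26.7 and 559 ± 15.7 CPM. Of 24 genes of Myc and ribosome biogenesis 8 turned downward and 5 upward, with Fbl, the nucleolar methyltransferase fibrillarin, a peak at 228 ± 13.6, 332 ± 30.3 and 211 ± 4.46 CPM (turn -1.19 ± 0.09, adjusted p = 3.86e-12). In the integrated stress response, 7 of 20 gene models turned upward and 0 downward, among them the slowed fall of Atf4, its transcription factor, at 232 ± 2.62, 151 ± 4.16 and 121 ± 5.43 CPM. At an unadjusted p under 0.05, 9 turned upward and 0 downward, and 0 turned downward by DESeq2 or limma-voom. Axon guidance genes turned downward in 9 and upward in 5 of 30 cases. Of 15 genes of G1 cyclins and inhibitors 5 turned each way, with Ccnd2, cyclin D2, a rise that stopped at 25.3 ± 2.96, 102 ± 10.4 and 96.8 ± 0.141 CPM (turn -2.1 ± 0.13, adjusted p = 5.85e-11). BMP genes counted 4 downward and 3 upward of 13, with slowed rises of Id1, Id2 and Id3, the usual targets of the pathway. Targets of LIF and STAT3 counted 5 upward and 3 downward of 14, immediate early genes 4 and 2 of 17, EMT factors 4 and 2 of 15, formative epiblast genes 4 and 3 of 16, Lin28 genes and partners 3 and 1 of 10, and the interferon response 3 and 3 of 20. Visceral endoderm secreted proteins counted 4 downward and 3 upward of 16, trophectoderm 4 and 2 of 13, Wnt genes 3 and 2 of 14, FGF feedback 3 and 1 of 14, and endothelium and blood 1 and 1 of 14.

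The direction of the turn also ran with transcript length, a feature that the contrast does not use. Over protein-coding genes, the median exonic length was 3299.5 bases for peaks, 3275 for late falls and 2628 for falls that sped up, against 6111 for troughs, 5846 for late rises and 4358 for all tested genes. With tested genes cut into 5 classes of equal size by length, 23.7% of the protein-coding genes in the shortest class turned downward and 10.4% upward, and in the longest class 12.2% and 27.3%. Pseudogenes made up 12.6% of late falls, 8.62% of peaks, 4.88% of stopped rises and 0.525% of slowed rises among downward shapes, 9.63% of stopped falls and 1.59% of late rises among upward shapes, and 7.02% of all tested genes. With the trend of each library with exonic length removed, an alternative chosen after seeing the data, 2564 genes turned upward and 2821 downward, and 4933 of the 5613 called genes were called again, 0 of them in the opposite direction. Of the genes in each shape, 721 peaks and 602 troughs kept their shape. Over the protein-coding genes among all 823 peaks and 711 troughs of that fit, the median length was 4121 and 4632 bases. Removing the trend with length narrows this gap by construction. Among the lists, two-cell embryo genes then counted 18 downward, the unfolded protein response 11 downward, p53 targets 14 upward, cholesterol synthesis 15 upward, ribosomal proteins 49 upward, CTCF and cohesin 8 upward and DNA methylation 9 upward. Whether RNA quality or library preparation differed between the days was not tested.

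**Figure D5:**
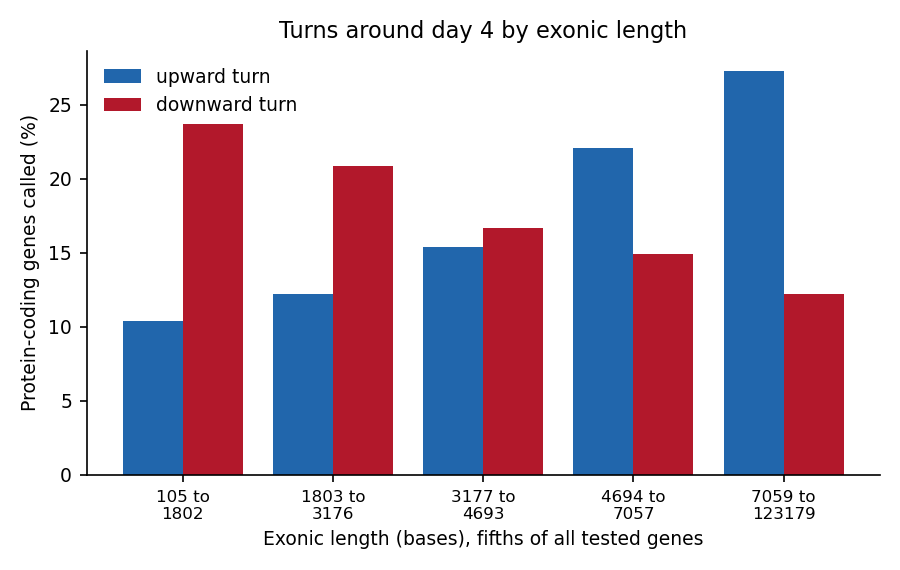
Percent of tested protein-coding genes with an upward (blue) or downward (red) turn, in 5 classes of exonic length in bases. Upward turns are least frequent in the shortest class (10.4%) and most frequent in the longest (27.3%), and downward turns the reverse (23.7% and 12.2%).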

How the data were processed

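RNA of 12 libraries was analysed. The labels give a MiniBEST kit for extraction and a SMARTER kit for libraries of polyadenylated RNA. The authors deposited raw counts for each gene. The submitters' processing notes list the tools featureCounts 2.0.1, HISAT2 2.1.0, FastQC 0.11.7 and DESeq2 and the build mm10. Strandedness, the annotation release and how multi-mapped reads were handled are not given in the sources used here. Of 55335 gene IDs, 55154 matched GENCODE M21, which gave coordinates, lengths and overlaps. Of 188 genes named by rule, 48 overlap another tested gene.

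edgeR 4.0.16 in R 4.3.3 was used for the counts. filterByExpr by day left 16468 genes, scaled by TMM. All libraries entered 1 robust quasi-likelihood model with a mean for each day, and day 6 minus 2 times day 4 plus day 2 was tested beside both steps. Figures were drawn with matplotlib 3.10.9 in Python 3.11.15.

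Replicates differed beyond counting noise, with 1.51 to 3.797 as the chi-square over its degrees of freedom, so no libraries were taken as duplicates. Deviations of same-numbered libraries of different days correlated at -0.0381 to 0.0343, and those of differently numbered ones at -0.0319 to 0.0339. No pairing by replicate number was seen. With 3 libraries a day and noise in every gene, pairing is not excluded by this. The procedure was tested on simulated data.

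The contrast, the 49 lists and the rule for named genes were chosen with earlier results of these data known. The rule takes up to 4 genes per shape with the largest steps or turns, at least 5 CPM and replicates that do not overlap, for each list the 3 members of smallest p, and 17 genes whatever their values. Other genes are given as members of a list, and some genes are not reported here. Alternatives tried were other scaling factors, filters and tests (DESeq2 1.42.0, limma-voom 3.58.1), the 9 libraries alone, a replicate block, thinned counts, a stricter threshold, each library left out and, added after seeing the data, runs without Gm42418 and mitochondrial genes and without trends with length or GC.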

Additional observations from a re-analysis of the deposited data

How the results depend on the processing

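No turn called in both the reported fit and an alternative had the opposite direction, over the 23 alternatives run. The number of called genes was 5570 with limma-voom, 5619 with median-ratio factors, 5597 with upper-quartile factors, 5592 with library size alone, 5297 with no filter, 5485 with the 9 libraries alone, 4828 with thinned counts and 4129 with DESeq2, against 5613 as reported. Leaving out Gm42418 and the mitochondrially encoded genes gave 5605. The counts of some shapes moved by more than 1.5 times. DESeq2 gave 510 troughs, 96 slowed falls, 49 rises that sped up and 47 falls that sped up. At an adjusted p under 0.01 there were 535 peaks, 478 troughs, 237 slowed rises, 73 slowed falls, 41 rises that sped up and 35 falls that sped up, where fewer genes pass by construction. With each library left out in turn, upward turns ranged from 2186 to 2743, downward turns from 2290 to 3010, peaks from 716 to 933, troughs from 647 to 755, stopped rises from 750 to 976, stopped falls from 864 to 1113, slowed rises from 280 to 380, slowed falls from 86 to 155, late rises from 531 to 718, late falls from 491 to 730, rises that sped up from 57 to 89 and falls that sped up from 41 to 83. The lowest counts came without replicate 1 or 2 of day 4, without which slowed falls numbered 88 or 86, rises that sped up 57 or 58 and falls that sped up 48 or 41. The share of upward turns among calls was 45.8% with upper-quartile factors and 50.1% as reported. The list of oxidative phosphorylation was the one whose median changed sign with the scaling. With the trend with exonic length removed, the medians of visceral endoderm secreted proteins (-0.068 to 0.011) and neurons (-0.0022 to 0.071) changed sign. Over the 49 lists and the alternatives other than the stricter threshold, 985 medians moved by no more than the spread between libraries and 92 by more.

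With the replicate block, 5558 genes were called (2782 upward and 2776 downward), of which 5483 were also called without it. No shared deviation of same-numbered libraries was seen, which does not exclude a shared culture or batch. Over 218 genes and the alternatives, 4915 turns kept their direction and side of the threshold, 88 lost their call, 7 gained one and 0 reversed. The contrast gives the day 4 libraries a weight of 2, so their spread and depth, which was lowest in replicate 3 with 6.95 times 1e6 counts, bear on every turn, and a turn whose 95% interval spans 0 was not detectable at this depth rather than absent. The cause of each lost call was not tested.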
